A study of Homo sapiens with 18 samples.

Results

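The measurements described here are those of the NF-kB subunits NFKB1, NFKB2, REL and RELB, of the inhibitors NFKBIA, NFKBIE and TNFAIP3, of the nuclear IkB proteins NFKBIZ and BCL3, and of the target gene ICAM1. They were followed in MDA-MB-231 cells, a human breast cancer line, in 6 conditions of oxygen and drug. Members were all probe sets that the gene table of the array gives to 1 of these 10 symbols alone, which were 20 of 54613 probe sets without controls. They covered 9 of the 10 genes (9 of 19775 genes with a probe set of their own on the array), because both BCL3 probe sets also carry the symbol of a microRNA gene, MIR8085, and BCL3 was therefore given no value. Of the 20 member probe sets, 16 were tested, having exceeded a presence threshold of 3.14 log2 units on both arrays of some condition. The other 4 (1 of NFKB2, 2 of REL and 1 of NFKBIA) stayed near the bottom of the scale, and each of these genes was measured through another probe set.

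All cells were kept for 16 hours in medium without serum. The conditions were cells without drug at 20% oxygen (N) or 1% oxygen (H), the same 2 oxygen levels with paclitaxel at 50 µM, a drug that stabilizes microtubules (N tax, H tax), and with epirubicin at 10 µM (N epi, H epi), an anthracycline that intercalates into DNA and poisons topoisomerase II. The platform was the Affymetrix HG-U133 Plus 2.0 expression array, and the values are log2 signals after GC-RMA, a method that corrects background by the base composition of the probes and summarizes them per probe set. Each condition had 2 arrays that could be assigned, described by the methods as biological replicates of 1 cell line. For 6 further arrays the drug in the title contradicted that in the source name, and these entered no condition. Because RNA was taken from whole cultures, fewer cells that express a gene and less RNA per cell cannot be told apart.

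Markers of the cell line followed the label in part. Of 6 genes listed as high in MDA-MB-231 cells for this check, 5 were present on all 12 arrays and SPARC on none. CDH1 and PGR were present on none, and ERBB2, EPCAM and GATA3, which are low in this line, were present on all. ESR1, also low in this line, was present on 1 array. The leukocyte markers PTPRC and CD3E were present on no array. Markers of liver cells and keratinocytes, which the study also cultured, were present in part. Of the liver markers, ALB and APOB were present on no array and AFP on 2. APOA1 and TTR were present on all 12, at no more than 4.356 log2 units. Of the keratinocyte markers, KRT5, KRT14, KRT1 and IVL were present on none. KRT10 was present on all 12, between 12.036 and 13.046. Between 41.4% and 42.6% of probe sets were present on each array.

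NF-kB is a family of dimeric transcription factors that are held in the cytoplasm by IkB proteins and released when the IKK complex marks these inhibitors for degradation. NFKB1 (p105/p50) and RELA act mainly in this canonical route, and NFKB2 (p100/p52) and RELB in the non-canonical route that starts with the kinase MAP3K14. Several of the inhibitors, with NFKBIA first among them, are themselves targets of NF-kB and close a negative feedback loop. In MDA-MB-231 cells, NF-kB is known to be active without a stimulus. The NF-kB site is a short sequence, called kB, in the promoters and enhancers of target genes.

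The promoters of the members show how often that site stands close to the start of these genes. RefSeq promoter windows on GRCh38.p14, with 250 bases before and 50 bases after a start site, were found for 8 of the 10 genes (12 start sites), with none for RELB and NFKBIE in the table used. The kB consensus was searched on both strands. It was found at 9 of the 12 start sites and in 7 of the 8 genes, and in 11.3% of all 35116 windows. A looser form, 3 G followed by 5 bases of any kind and 2 C, which holds every match of the consensus, was found at 12 of 12 and in 58.7% of all windows. The core letters of the hypoxia response element, ACGTG or GCGTG, 1 or both, were found at 7 of the 12 start sites and in 48.4% of all windows. ICAM1 had no match to the consensus in its window. The stretches that follow show the matches, in capitals, of the genes whose values are described most fully, each written 5′ to 3′ on the strand of the gene, with up to 20 bases on either side.
NFKBIA: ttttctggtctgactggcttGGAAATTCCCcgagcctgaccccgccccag
NFKBIZ: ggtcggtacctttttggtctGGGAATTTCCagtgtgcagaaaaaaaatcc
REL: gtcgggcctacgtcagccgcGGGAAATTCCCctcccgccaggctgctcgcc
TNFAIP3: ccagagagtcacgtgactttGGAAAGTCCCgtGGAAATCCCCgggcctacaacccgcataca
NFKB2: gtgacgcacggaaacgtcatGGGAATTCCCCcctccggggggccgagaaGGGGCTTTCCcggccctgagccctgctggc
NFKB1: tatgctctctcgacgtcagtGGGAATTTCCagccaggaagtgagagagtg
They lie at chr14:35404801-35404850 on the minus strand (NFKBIA) and on the plus strand at chr3:101827747-101827796 (NFKBIZ, the first of its 2 start sites), chr2:60881507-60881557 (REL), chr6:137867172-137867233 (TNFAIP3), chr10:102394451-102394529 (NFKB2, the second of its 3 start sites) and chr4:102501290-102501339 (NFKB1, the first of 2). NFKBIZ and NFKB1 share the same 10 letters, GGGAATTTCC. The stretch of REL and the first capitals of NFKB2 hold 2 matches each that overlap by all but 1 base. In NFKBIA and TNFAIP3 the match reads on the opposite strand. These are matches of letters, and binding was not measured.

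**Figure D1:**
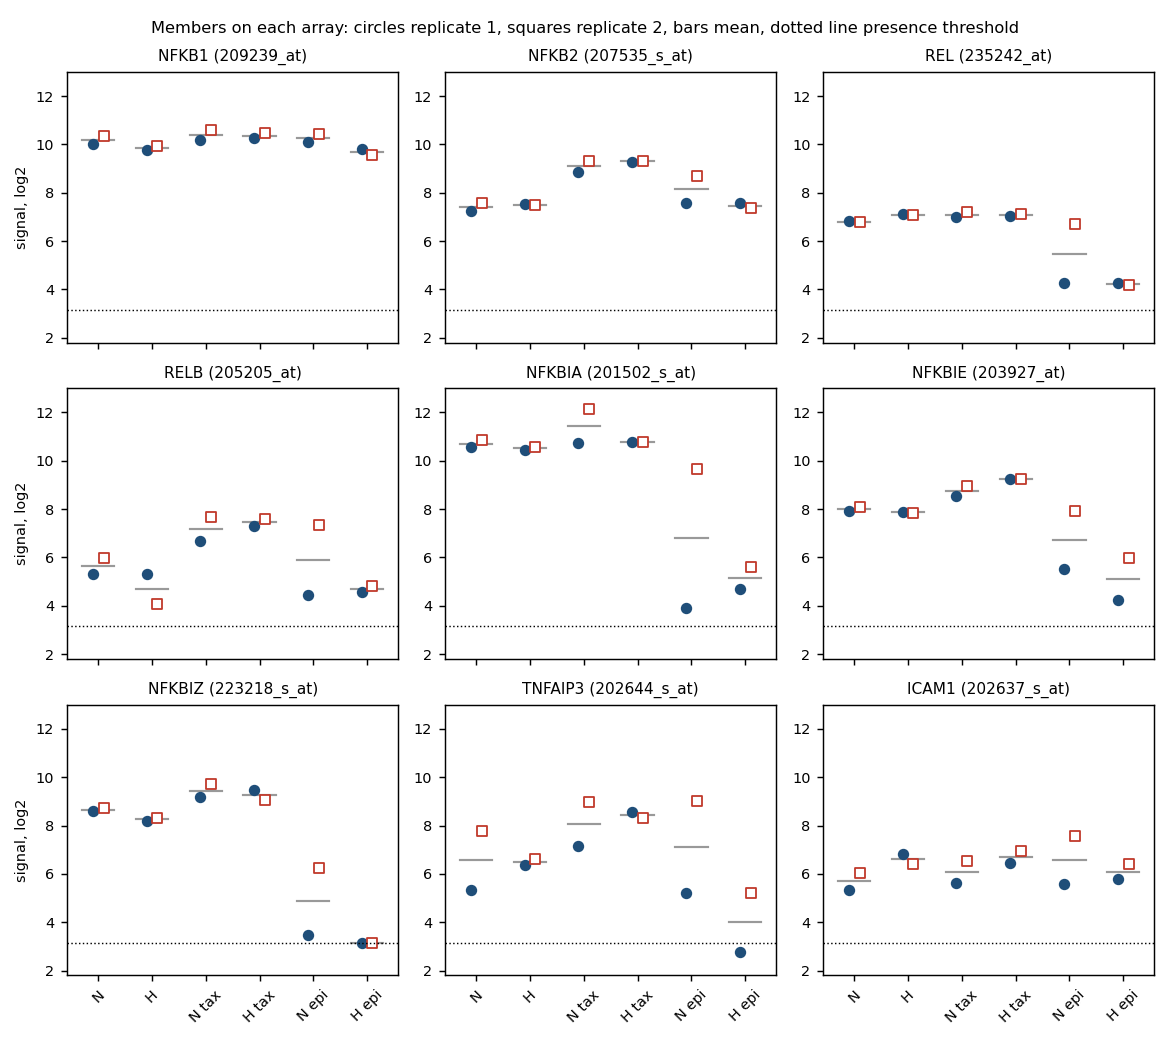
Log2 signal of the leading probe set (the one with the highest mean) of 9 members on each of the 12 arrays, by condition, with circles for replicate 1, squares for replicate 2, a grey bar for the mean and a dotted line at the presence threshold of 3.14. NFKB2 and RELB stand higher in N tax and H tax than in N and H, REL, NFKBIA, NFKBIE and NFKBIZ stand low in H epi, and the square lies above the circle in N epi for all 9 genes.

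The replicates of N epi stood apart in the members. On N epi replicate 2, all 16 tested member probe sets were higher than on N epi replicate 1, where 50.6% of all 24151 tested probe sets were. The difference exceeded 2 log2 units for 8 of the 16 members and for 2.75% of all tested probe sets. NFKBIA differed most, with 3.92 on replicate 1 and 9.66 on replicate 2. The other normoxic conditions showed a smaller difference of the same sign. Members were higher on replicate 2 for 15 of 16 in N (46.2% of all tested) and for 16 of 16 in N tax (43.3% of all tested), with a median difference of 0.30 and 0.73 log2 units. In hypoxia they were higher for 8 of 16 in H (52.7%), 10 of 16 in H tax (47.5%) and 10 of 16 in H epi (29.9%), with medians between 0.04 and 0.15. The medians over all tested probe sets lay between -0.12 and 0.01 in the 6 conditions.

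The textbook target genes of NF-kB, a list of 30 genes apart from the members of which 18 were tested, differed between the same arrays. On replicate 2, 6 of 18 were more than 1 log2 unit higher in N, 5 in N tax and 10 in N epi, and none was more than 1 unit lower. Over all 11196 genes tested, the shares more than 1 unit higher were 0.205%, 0.304% and 9.77%. In H and H tax no target gene was more than 1 unit higher on replicate 2 (0.152% and 0.411% of all genes), and in H epi 4 of 18 were (1.19% of all genes), so that target genes also differed between the replicates of 1 hypoxic condition. CXCL8, the chemokine interleukin-8, had 6.98 and 12.17 in N, 8.77 and 11.55 in N tax, and 7.83 and 12.46 in N epi, against 7.41 and 7.60 in H. IL6, a cytokine, had 6.78 and 9.09 in N, 8.59 and 11.56 in N tax, and 4.50 and 10.14 in N epi. Both were high on the 3 normoxic arrays of replicate 2, and these 2 genes were picked after their values were seen. The study describes the replicates of a condition as independent experiments. Whether a replicate number marks the same experiment in each condition is not given in the sources used here, and the source of the difference was not tested. The comparisons that rest on these arrays are therefore given with and without them.

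**Figure D2:**
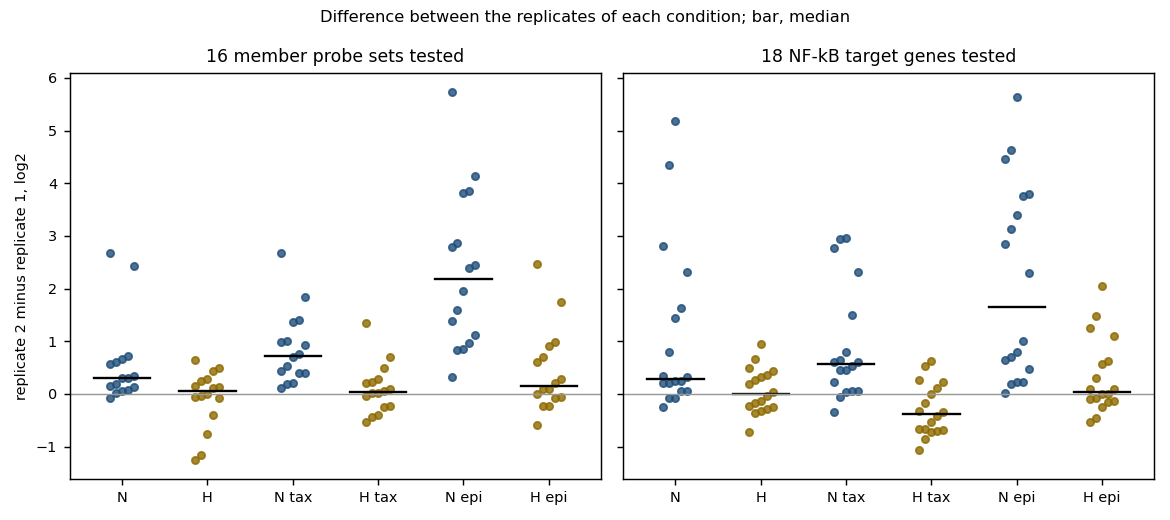
Difference between the replicates of each condition (replicate 2 minus replicate 1, log2 units) for the 16 tested member probe sets (left) and the 18 tested NF-kB target genes (right), 1 point each, with a bar at the median. In N, N tax and N epi 15, 16 and 16 of the 16 members lie above 0, with medians of 0.30, 0.73 and 2.18 for the members, while in H, H tax and H epi they lie on both sides.

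On N epi replicate 2 the signals moved towards those of cells without drug in some members and past them in others. REL had 4.25 and 6.70 in N epi, against 6.85 and 6.77 in N. NFKBIE had 5.52 and 7.92, against 7.91 and 8.09. For these genes replicate 2 reached the level of N or came close to it. RELB, with 4.46 and 7.33, TNFAIP3, with 5.21 and 9.02, and NFKB2, with 7.58 and 8.70, stood above both N arrays on replicate 2.

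Paclitaxel raised NFKB2, the precursor of the p52 subunit, in normoxia and in hypoxia. The leading probe set (207535_s_at) had 7.26 and 7.57 in N, 8.87 and 9.31 in N tax, 7.54 and 7.48 in H, and 9.29 and 9.31 in H tax. All 4 paclitaxel arrays were above all 4 arrays without drug. The change was 1.67 ± 0.32 log2 units (SE, n = 2 arrays per condition, 3.19-fold, adjusted p = 0.00809 by limma) in N tax against N and 1.79 ± 0.32 (3.47-fold, adjusted p = 0.00416 by limma) in H tax against H. The other tested probe set, 209636_at, rose by 1.33 (adjusted p = 0.0212) and 1.66 (adjusted p = 0.00600). In order of their means, the leading probe set had 9.30 in H tax, 9.09 in N tax, 8.14 in N epi, 7.51 in H, 7.47 in H epi and 7.41 in N. H tax and N tax did not differ past the test (0.22 ± 0.32, adjusted p = 0.927 by limma), nor did H and N (0.10 ± 0.32, adjusted p = 0.948), and the gap between N tax and N epi was not tested.

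RELB, the partner of p52, rose past the test in hypoxia when all 12 arrays were fitted. Its signals were 5.32 and 4.06 in H and 7.31 and 7.60 in H tax, and those in normoxia were 5.32 and 5.99 in N and 6.69 and 7.69 in N tax. Arrays with and without paclitaxel did not overlap at either oxygen level. The change was 2.77 ± 0.83 log2 units (SE, n = 2, 6.80-fold, adjusted p = 0.0370 by limma) in H tax against H and 1.53 ± 0.83 (adjusted p = 0.233) in N tax against N. The difference between the hypoxia effects with and without paclitaxel was past the test for 0 of the 16 members (0 at an unadjusted p under 0.05, and 0.12% of all probe sets past it), so RELB was not shown to respond differently at the 2 oxygen levels. The call in hypoxia was lost when any 1 of 10 of the 12 arrays was left out (adjusted p = 0.0514 to 0.202) and held without either N epi array. The change was 2.14 without H replicate 2 and 3.39 without H replicate 1. In normoxia the change of RELB stayed at 1.53 when either N epi array was left out. Leaving out an N epi array breaks up the pair on which RELB differed most, so no call at either oxygen level is drawn from those fits.

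Of the 16 tested member probe sets, 2 were higher and 0 lower in N tax against N, where 23.3% of all probe sets passed (9.49% higher), and 3 were higher and 0 lower in H tax against H, where 30% passed (13% higher). The median change of the members was 0.75 and 0.85 log2 units, beside -0.01 and 0 over all tested probe sets. Arrays did not overlap for 8 and 11 of the 16, where they did not for 69.2% and 66.6% of all. The shares past the test, 12.5% and 18.8%, were below those of all probe sets in both directions together.

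The inhibitors gave positive changes with paclitaxel that did not pass. NFKBIE, IkB epsilon, had 7.91 and 8.09 in N and 8.56 and 8.95 in N tax, and 7.89 and 7.86 in H and 9.26 and 9.23 in H tax. Its arrays did not overlap in either pair, and its change was 0.76 ± 0.74 (adjusted p = 0.532) and 1.37 ± 0.74 (adjusted p = 0.211 by limma). NFKBIA, IkB alpha, had 10.56 and 10.87 in N, 10.75 and 12.15 in N tax, 10.46 and 10.58 in H, and 10.77 and 10.78 in H tax. TNFAIP3 (A20), a ubiquitin-editing enzyme that switches the signal off, had 5.35 and 7.78 in N, 7.14 and 8.98 in N tax, 6.38 and 6.62 in H, and 8.54 and 8.30 in H tax. The difference of TNFAIP3 in H tax against H was 1.92 ± 1.35 (adjusted p = 0.339 by limma), and its arrays overlapped in normoxia but not in hypoxia. REL (c-Rel) and NFKB1 had changes between -0.67 and 0.52 over their 4 tested probe sets in these comparisons, and none passed.

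The error of these estimates carries the spread of the N epi arrays, because the 6 conditions share 1 variance per probe set. Without N epi replicate 2, 4 member probe sets were higher in N tax against N (26.1% of all probe sets past the test), namely both of NFKB2 and both of NFKBIZ (0.79, adjusted p = 0.0287, and 1.49, adjusted p = 0.0491 by limma). Without N epi replicate 1, 5 were higher (26.6% of all), the same 4 and RELB. NFKBIZ, a nuclear IkB protein that works with p50 at promoters of secondary response genes, had 8.59 and 8.73 in N, 9.18 and 9.71 in N tax, 8.19 and 8.32 in H, and 9.48 and 9.05 in H tax through its leading probe set, 223218_s_at. Without the normoxic arrays of replicate 2 (N, N tax and N epi together), NFKB2 changed by 1.61 in N tax against N. That alternative was added after the data were seen, and each lone array is assumed in it to vary like the others. Its arrays were left out because members differed on them, which lowers the errors of such members by construction. In H tax against H the changes stayed as with all arrays. The SE of the second probe set of TNFAIP3, 202643_s_at (1.59), fell from 1.348 to 0.295, so no call is drawn from this fit. Leaving out N replicate 1 or N tax replicate 2 left 0 members past the test in N tax against N.

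**Figure D3:**
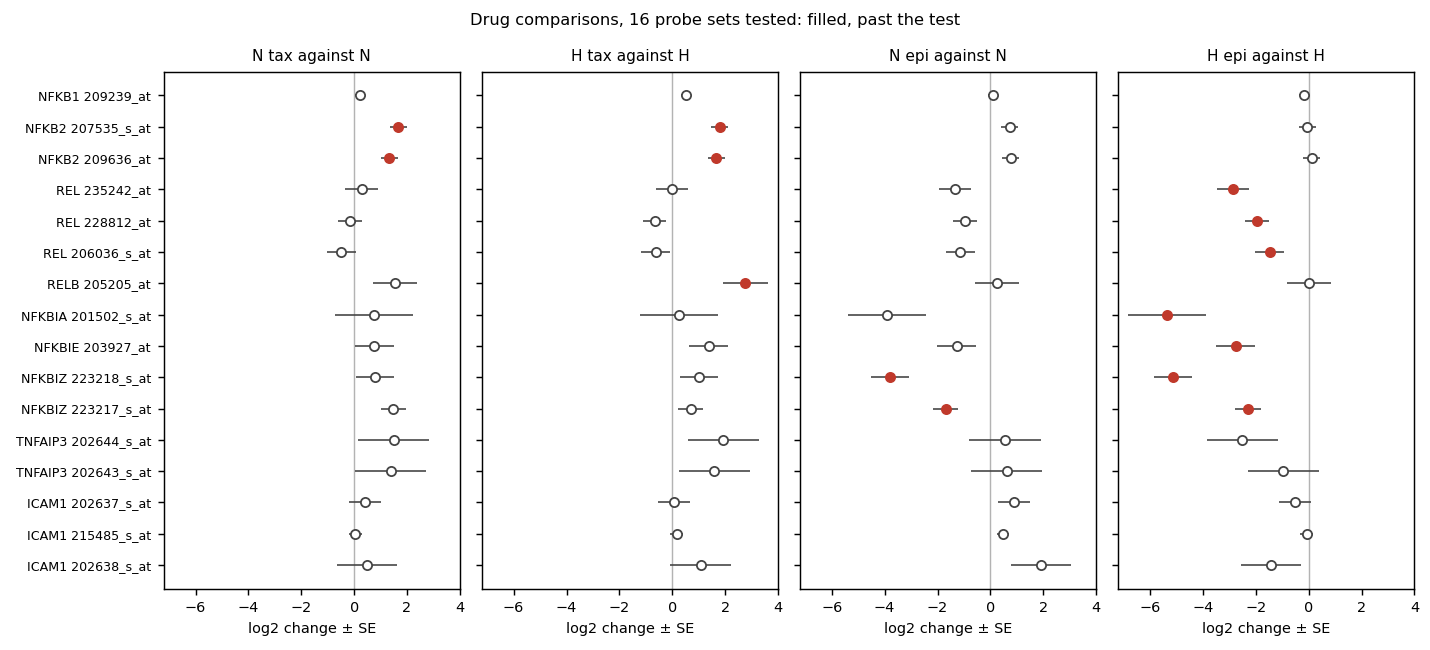
Log2 change ± SE of the 16 tested member probe sets in the 4 comparisons of a drug with no drug (n = 2 arrays per condition), filled where the adjusted p was under 0.05. Both NFKB2 probe sets lie to the right with paclitaxel, and REL, NFKBIA, NFKBIE and NFKBIZ lie to the left with epirubicin in hypoxia.

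Epirubicin in hypoxia lowered REL, NFKBIA, NFKBIE and NFKBIZ. NFKBIA, the main cytoplasmic inhibitor, had 10.46 and 10.58 in H and 4.70 and 5.61 in H epi. It fell by 5.36 log2 units (SE 1.47, n = 2, 41.1-fold, adjusted p = 0.0119 by limma). Both epirubicin arrays lay far below both arrays without drug. The call was lost without H replicate 1, H replicate 2 or H epi replicate 1 (adjusted p = 0.0503 to 0.0697 by limma).

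NFKBIZ had 8.19 and 8.32 in H and 3.12 on both H epi arrays, under the presence threshold. It was at least 34.6-fold lower, computed against that threshold (fitted change -5.13 ± 0.72, adjusted p = 0.000354 by limma). Its second probe set, 223217_s_at, had 5.44 and 6.09 in H and 3.12 and 3.83 in H epi, a change of -2.29 ± 0.47 (4.90-fold lower, adjusted p = 0.00289). The 2 probe sets gave the same direction and did not overlap between the conditions.

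REL, a subunit with a strong activation domain, had 7.13 and 7.06 in H and 4.25 and 4.20 in H epi through its leading probe set, 235242_at. The value of 4.25 also stood on N epi replicate 1, and whether it is a floor of this probe set was not tested. The change was -2.87 ± 0.61 (7.31-fold lower, adjusted p = 0.00336 by limma, n = 2), and those of 228812_at and 206036_s_at were -1.96 (adjusted p = 0.00491) and -1.47 (adjusted p = 0.0443). NFKBIE had 7.89 and 7.86 in H and 4.25 and 5.99 in H epi, and changed by -2.75 ± 0.74 (6.74-fold lower, adjusted p = 0.0108 by limma). The 4 genes were separated between H and H epi on all of these probe sets. The call of NFKBIE was lost without H epi replicate 1 (-1.88, adjusted p = 0.0873) and its change was -3.62 without H epi replicate 2, and that of REL 206036_s_at when any 1 of 9 arrays was left out (adjusted p = 0.0542 to 0.250).

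The other subunits did not pass. NFKB1 had 9.76 and 9.92 in H and 9.79 and 9.56 in H epi, NFKB2 had 7.54 and 7.48 against 7.58 and 7.36, and RELB had 5.32 and 4.06 against 4.59 and 4.80. Their arrays overlapped, and their changes were -0.17 ± 0.20, -0.04 ± 0.32 and 0.01 ± 0.83. TNFAIP3 had 6.38 and 6.62 in H and 2.76 and 5.22 in H epi, without overlap, and its change of -2.51 ± 1.35 did not pass (adjusted p = 0.136 by limma).

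In H epi against H, 7 of the 16 tested member probe sets were lower and 0 higher, where 63.5% of all probe sets passed and 32.5% were lower. Arrays did not overlap for 11 of 16 members and for 81.6% of all. The share of members past the test, 43.8%, was below that of all probe sets. The median change was -1.45 log2 units for the members and 0 for all tested probe sets. Quantile normalization of the arrays moved the median over all probe sets to 0.25 in this comparison and gave 6 members lower and 2 higher (69.2% of all probe sets past the test), the latter being ICAM1 215485_s_at (0.62, adjusted p = 0.0181 by limma) and NFKB2 209636_at (0.77, adjusted p = 0.0228). The 3′ to 5′ difference of the ACTB control probe sets, a sign of RNA quality, lay between -0.307 and -0.206 on the 4 epirubicin arrays. It was -0.042 and -0.019 in N, and between 0.071 and 0.317 on the others. That of GAPDH showed no such gap, with 0.425 to 0.483 on the epirubicin arrays and 0.391 to 0.490 on all others. The part of RNA quality in these changes was not tested. Without the normoxic arrays of replicate 2, the changes of the 2 TNFAIP3 probe sets stayed at -2.51 and -0.95, with SEs of 0.802 and 0.295. Those arrays were left out because members differed on them, so the smaller errors lend no support. Without H epi replicate 1, 4 of the members passed (59.5% of all).

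In normoxia the effect of epirubicin depended on which N epi array was used. With both, only NFKBIZ passed. Its leading probe set had 8.59 and 8.73 in N and 3.46 and 6.26 in N epi, a change of -3.80 ± 0.72 (13.9-fold lower, adjusted p = 0.00281 by limma, n = 2). The second, 223217_s_at, had 5.91 and 5.97 in N and 3.82 and 4.67 in N epi (-1.70 ± 0.47, adjusted p = 0.0165). Both N epi arrays were below both N arrays on each probe set, and the second probe set lost its call without either N array or without N epi replicate 1 (adjusted p = 0.0647 to 0.103 by limma). NFKBIA, with 10.56 and 10.87 in N and 3.92 and 9.66 in N epi, had a difference of -3.93 ± 1.47 that did not pass (adjusted p = 0.0523). In all, 2 of 16 were lower and 0 higher, where 52.6% of all probe sets passed and 27.8% were lower, and arrays did not overlap for 7 of 16 members and for 79.9% of all. Under quantile normalization, which moved the median over all probe sets by 0.18, 3 were higher and 3 lower (56.6% of all past the test).

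Replicate 1 alone gave 7 members lower and 0 higher (51.2% of all probe sets past the test, 27.2% lower). REL changed by -2.56 (5.89-fold lower, adjusted p = 1.01e-05), NFKBIA by -6.80 (111-fold lower, adjusted p = 7.79e-05), NFKBIE by -2.48 (adjusted p = 0.0102) and NFKBIZ by -5.20 (36.7-fold lower, adjusted p = 7.84e-06, all by limma). The 7 probe sets were 3 of REL, 2 of NFKBIZ and 1 each of NFKBIA and NFKBIE. NFKB1 and NFKB2, with differences of -0.06 and 0.16, did not pass.

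Replicate 2 alone gave 5 members higher and 1 lower (41.1% of all past the test, 19% higher). NFKB2 changed by 1.29 (adjusted p = 0.00319) and 1.25 (adjusted p = 0.0118). All 3 probe sets of ICAM1, an adhesion molecule for leukocytes, were higher, by 1.87 (adjusted p = 0.0188), 0.90 (adjusted p = 0.00459) and 3.99 (adjusted p = 0.00313). NFKBIZ was lower, with a change of -2.40 (adjusted p = 0.000487, all by limma), and its leading probe set was lower past the test with either array. The changes of REL, NFKBIA and NFKBIE were -0.11, -1.06 and -0.08 and did not pass. Each of these fits takes the lone N epi array to vary like the arrays of the other conditions. Members were already seen to differ between the N epi arrays, so the counts of these fits are not read as results about the members. With the normoxic arrays of replicate 2 left out together, 1 array stood on each side of N epi against N. The leading probe sets of REL, NFKBIA and NFKBIZ then changed by -2.60, -6.65 and -5.13.

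**Figure D4:**
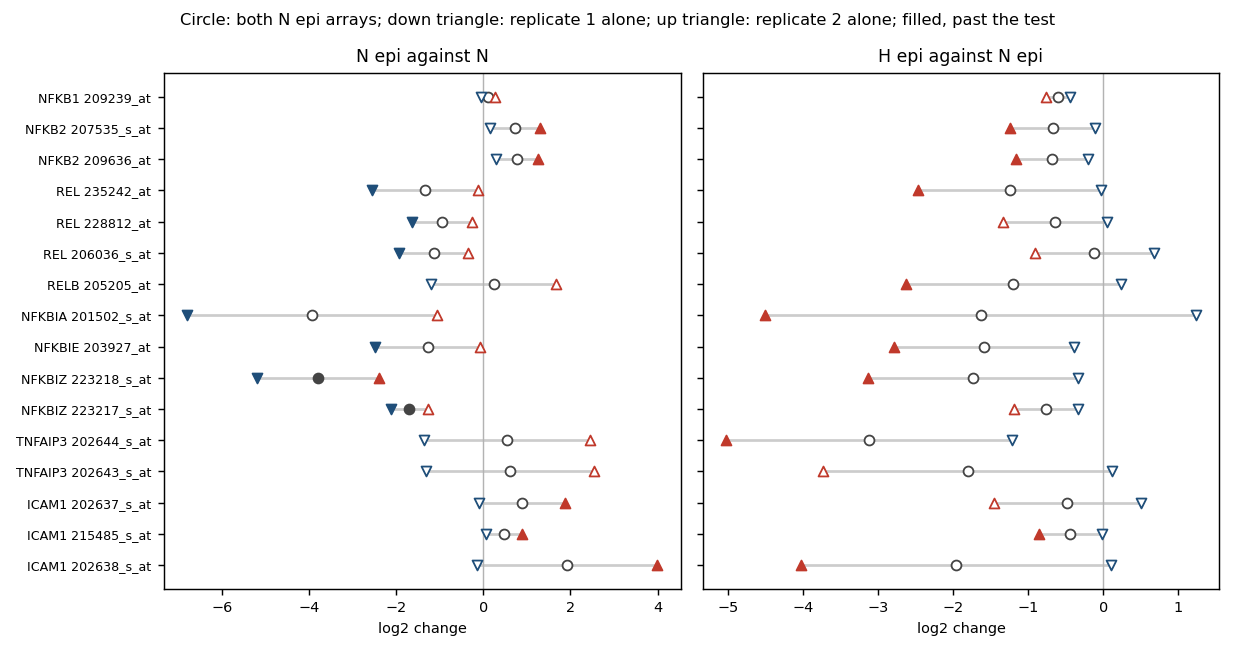
Log2 change of the 16 tested member probe sets in N epi against N (left) and H epi against N epi (right) with both N epi arrays (circles), with replicate 1 alone (down triangles) and with replicate 2 alone (up triangles), filled where the adjusted p was under 0.05. The leading probe set of NFKBIZ lies below 0 under all 3 choices on the left, and REL, NFKBIA and NFKBIE lie further below 0 there with replicate 1 alone than with replicate 2 alone. The triangles rest on 1 N epi array, so no call is drawn from their filling.

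Hypoxia without drug moved no member past the test. In H against N, 0 of 16 passed (0 at an unadjusted p under 0.05 by limma), where 9.51% of all probe sets did. Arrays did not overlap for 7 of 16 members and for 61.3% of all, and the median change was -0.05 log2 units, beside -0.02 over all tested. ICAM1 had 5.32 and 6.05 in N and 6.82 and 6.42 in H through its leading probe set, 202637_s_at, and 3.38 and 3.54 against 5.43 and 4.27 through 202638_s_at. Both separated the conditions, with changes of 0.94 ± 0.61 (adjusted p = 0.425) and 1.39 ± 1.14 (adjusted p = 0.554), while 215485_s_at, at 5.54 and 5.61 against 5.55 and 5.83, overlapped. The 3 ICAM1 probe sets thus did not agree in size.

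With paclitaxel, 0 of 16 members passed in H tax against N tax (0 at an unadjusted p under 0.05), where 1.33% of all probe sets did, and arrays did not overlap for 5 of 16 (41.6% of all). The changes of the leading probe sets lay between -0.67 (NFKBIA) and 0.60 (ICAM1). ICAM1 202638_s_at had 3.46 and 4.44 in N tax and 5.24 and 6.59 in H tax, a change of 1.96 ± 1.14 (adjusted p = 0.575 by limma). The N and N tax conditions both hold an array of replicate 2 on which members were high, and without these arrays 0 members passed in either comparison (2 and 4 at an unadjusted p under 0.05).

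With epirubicin, 0 of 16 members passed in H epi against N epi (3 at an unadjusted p under 0.05 by limma), where 1.52% of all probe sets did, with a median change of -0.98 and arrays that did not overlap for 2 of 16 (38.7% of all). Against N epi replicate 1 alone, 0 passed (1.83% of all), and the difference of NFKBIA was 1.24. Against N epi replicate 2 alone, 10 were lower (12.8% of all past the test, 11% lower), among them NFKBIA (-4.51, adjusted p = 0.00157), REL (-2.47, adjusted p = 4.76e-05), RELB (-2.63), TNFAIP3 (-5.03, adjusted p = 0.0388) and ICAM1 202638_s_at (-4.03, adjusted p = 0.0062). The hypoxia effect with epirubicin minus that without drug was past the test for 0 of 16 (3.96% of all), for 0 with replicate 1 alone and for 7, all lower, with replicate 2 alone (13.5% of all). The sign for NFKBIA turned with the N epi array used. All 16 members were already seen to be higher on N epi replicate 2. Setting H epi against that array alone therefore favours lower members by construction, in the comparison and in the difference of hypoxia effects. Leaving out an N epi array also removes the spread of that pair from the error. No call on a member is therefore drawn from the fits with 1 N epi array.

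The genes that carry the signal to NF-kB were counted on a list of 28 (adaptors, TRAF proteins, IKK subunits, ubiquitin ligases), 23 of them tested through their highest probe set. In N tax against N, 4 were higher and 0 lower (24% of all 11196 genes past the test, 8.94% higher), and in H tax against H 6 were higher and 0 lower (31.5%, 13.3% higher). MAP3K14 (NIK), the kinase of the non-canonical route, had 6.39 and 6.24 in N and 7.88 on both N tax arrays (1.57 ± 0.22, 2.96-fold, adjusted p = 0.00201 by limma). RBCK1 (HOIL-1), a subunit of the linear ubiquitin ligase, rose by 1.44 (adjusted p = 0.00407) in N tax and by 1.81 (adjusted p = 0.000975) in H tax. TRAF1, an adaptor of TNF receptors, had 4.05 and 3.65 in H and 4.90 and 6.49 in H tax (1.84 ± 0.59, adjusted p = 0.0449), a call that was lost in 9 of the 12 fits with 1 array left out (adjusted p = 0.0646 to 0.252, 2.06-fold without H tax replicate 2 and 6.23-fold without H tax replicate 1).

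Epirubicin gave 4 higher and 10 lower of these 23 in N epi against N (54.9% of all genes past the test, 30.8% lower) and 6 higher and 9 lower in H epi against H (65.7%, 36.2% lower). TNFRSF1A, a receptor for TNF, had 10.80 and 10.73 in N and 4.77 and 8.14 in N epi (-4.31 ± 1.09, adjusted p = 0.0106 by limma), and 10.80 and 10.62 in H and 5.05 and 2.23 in H epi (-7.06 ± 1.09, adjusted p = 0.000598). The value of 2.23 was at the floor of the scale, and the fold in H epi was 50.4 without that array. In normoxia the call was lost without N replicate 1 or N epi replicate 1 (adjusted p between 0.0511 and 0.0529), and the fold ran from 6.16 to 63.6 with the N epi array used. The adaptor TRAF5 fell in N epi (-2.78, adjusted p = 0.00176), from 4.03-fold to 11.6-fold with the N epi array used. In H epi both of its arrays were under the presence threshold, at least 18.1-fold below H (adjusted p = 7.20e-05). Fits that hold 1 N epi array gave fewer calls in N epi against N both among the 23 and among all probe sets, so the drop is not read as a trait of the list. In hypoxia without drug, CHUK (IKK alpha) was lower (-0.92 ± 0.20, adjusted p = 0.0277) and the adaptor TRADD higher (0.64 ± 0.14, adjusted p = 0.0260), in a count of 1 higher and 3 lower (10% of all genes). Both calls were lost without N replicate 1, N replicate 2 or H replicate 1 (adjusted p = 0.0890 to 0.173 for CHUK and 0.111 to 0.148 for TRADD). None passed in H tax against N tax (1.25% of all genes). In H epi against N epi the ligase TRAF6 passed (-1.12, adjusted p = 0.0216, 1.71% of all genes), and its hypoxia effect differed between epirubicin and no drug (-1.08, adjusted p = 0.0389, 4.09% of all genes). The first call was lost without either N array (adjusted p = 0.0611 and 0.0613) and the second in 9 of the 12 fits with 1 array left out (adjusted p = 0.0539 to 0.130).

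Other inhibitors of the pathway, 13 tested of 16, gave 3 higher and 0 lower in N tax against N (23.1% past the test, beside 24% of all genes) and in H tax against H (23.1%, beside 31.5%). TNIP1 (ABIN1), which binds TNFAIP3, rose by 1.14 (adjusted p = 0.0293 by limma) in N tax, a call lost without any 1 of the N and N tax arrays (adjusted p = 0.0597 to 0.158). ITCH, a ligase that works with TNFAIP3, rose by 0.88 (adjusted p = 0.00311) in N tax and 2.82-fold (adjusted p = 0.000214) in H tax, and NFKBIB (IkB beta) by 1.12 (adjusted p = 0.00208) in H tax. Epirubicin in normoxia gave 3 higher and 4 lower (53.8%, beside 54.9% of all genes), and in hypoxia 3 higher and 6 lower (69.2%, beside 65.7%), shares near those of all genes. OTULIN, which removes linear ubiquitin chains, had 8.36 and 8.45 in N, 5.37 and 5.94 in N epi, 8.73 and 8.44 in H, and 4.61 and 4.36 in H epi. It fell by 2.75 (adjusted p = 4.30e-05) in N epi and by 4.10 (adjusted p = 3.33e-06) in H epi, and its N epi arrays lay close together. OTUD7B (Cezanne), a deubiquitinase, fell by 2.34 (adjusted p = 0.00502; 2.72-fold to 9.38-fold with the N epi array used) and 4.47 (adjusted p = 0.000115). In H against N, ITCH was lower (-1.06, adjusted p = 0.00388) and PDLIM2, a nuclear ligase for RELA, higher (0.56, adjusted p = 0.0369), and PDLIM2 was higher in H tax against N tax too (0.89, adjusted p = 0.0187). The first call of PDLIM2 was lost in 6 of the 12 fits with 1 array left out (adjusted p = 0.0517 to 0.226), and the second without any 1 of its own 4 arrays (adjusted p = 0.0533 to 0.107). The hypoxia effects of OTULIN (-1.35, adjusted p = 0.0364) and ITCH (0.95, adjusted p = 0.0381) differed between epirubicin and no drug (4.09% of all genes), but each call was lost in 9 of the 12 fits with 1 array left out (adjusted p = 0.0502 to 0.129 and 0.0531 to 0.140).

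Most of the 18 tested target genes did not pass with paclitaxel. In N tax 2 were higher and 1 lower (16.7% past the test, beside 24% of all genes), and in H tax 1 was higher and 0 lower (5.56%, beside 31.5%). CCL5, a chemokine, was under the presence threshold in N (2.41 and 2.47) and H (2.40 and 2.44), and had 5.79 and 6.02 in N tax and 7.08 and 7.35 in H tax. It was at least 6.79-fold higher with paclitaxel in normoxia (adjusted p = 3.72e-05 by limma) and at least 16.8-fold higher in hypoxia (adjusted p = 2.00e-06), and H tax exceeded N tax by 1.31 (adjusted p = 0.00370). PTGS2 (cyclooxygenase-2) had 3.84 and 4.64 in N and 7.37 and 7.90 in N tax (3.40 ± 0.85, adjusted p = 0.0225), a call lost without any 1 of these 4 arrays (adjusted p = 0.0655 to 0.133). More target genes were higher in H tax in the fit without the normoxic arrays of replicate 2, which keeps 1 array per normoxic condition. Those arrays were left out after members and target genes were seen to differ on them, and no share of all genes was set beside it.

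With epirubicin, 3 target genes were higher and 4 lower at 20% oxygen, and 2 higher and 6 lower at 1%. The shares past the test, 38.9% and 44.4%, were below those of all genes, 54.9% and 65.7%. IER3, an immediate early gene, had 14.59 and 14.83 in N and 8.42 and 12.88 with epirubicin in normoxia. In hypoxia its signals were 14.60 and 14.28 without drug and 7.18 and 7.17 with it. It changed by -4.06 ± 1.11 (adjusted p = 0.0154 by limma) and -7.27 ± 1.11 (154-fold lower, adjusted p = 0.000587). In normoxia its call was lost without either N array (adjusted p = 0.0585 and 0.0715), and the fold ran from 3.56 to 78.1 with the N epi array used. LIF, a cytokine of the interleukin-6 family, fell by 2.25 (adjusted p = 0.000752) and 2.79 (adjusted p = 0.000127). With N epi replicate 1 alone more target genes were lower than higher in N epi, and with replicate 2 alone more were higher than lower. These fits hold 1 N epi array, target genes were already seen to differ between these arrays, and no share of all genes was set beside them. Nothing about the list is therefore read from them. Under hypoxia, TNFSF10 (TRAIL), a death ligand, had 6.89 and 7.10 in N and 9.08 and 8.72 in H (1.91 ± 0.29, 3.75-fold, adjusted p = 0.00668). With paclitaxel it was higher in hypoxia as well (2.02, adjusted p = 0.0140), and with epirubicin its 2 arrays had 6.50 and 7.15 at 20% oxygen, against 6.72 and 6.82 at 1%. Its hypoxia effect differed between epirubicin and no drug (-1.96, adjusted p = 0.0394). These 3 calls were lost in 2, 3 and 9 of the 12 fits with 1 array left out (adjusted p = 0.0530 to 0.0608, 0.0585 to 0.0747 and 0.0606 to 0.141). PLAU (urokinase) was lower in H (-0.59, adjusted p = 0.0332), in a count of 1 higher and 1 lower (11.1%, beside 10% of all genes), and lost its call in 6 of the 12 fits (adjusted p = 0.0555 to 0.195).

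The genes whose condition means were most like those of a member were found for the 6 members whose means spanned at least 2 log2 units, among 11195 other genes, by the root-mean-square difference over the 6 condition means. USP53, LMTK2 and HERPUD2 came closest to REL (0.089, 0.101 and 0.122 log2 units). ZFAND5, TRIM27 and ZCCHC8 came closest to NFKBIA (0.200, 0.203 and 0.219), and TRIM27, PIP4P1 and TRIM38 to NFKBIZ (0.089, 0.133 and 0.166). NFKBIE was closest to LRIF1 (0.121), RGS2 (0.143) and KLHL29 (0.153), and RELB to HSPB8 (0.207), LINC00662 (0.257) and TXNL4B (0.280). TNFAIP3 had no gene closer than AVPI1 (0.403), followed by USP36 (0.471) and GADD45B (0.492). Condition means hide the replicates, and the like genes varied in this. USP53 differed between the N epi arrays, with 5.41 and 7.38 against 7.50 and 7.86 in N. Of the genes closest to RELB, HSPB8 (6.78 and 6.88) and LINC00662 (4.95 and 5.23) differed little there, and TXNL4B had 5.34 and 6.48.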

How the data were processed

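RNA of 18 cultures was measured on Affymetrix arrays, and the 12 arrays with matching labels (2 per condition) were compared. The deposited values are log2 signals (2.23 to 16.6), made by the authors with GC-RMA, whose version is not given in the sources used here. The methods name AffyProbeMiner chip definitions, while the probe sets carry standard Affymetrix names. No further normalization was applied. GC-RMA draws low signals to a floor, so that low values have little spread and folds against them are bounds. The number of arrays limits the precision.

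Members, gene lists, motifs and comparisons were chosen with earlier results of these data known. Symbols came from GEO's annotation of the platform, brought up to date (41097 probe sets had 1 symbol, 1801 several, and 11777 were not in it). A probe set was tested when it exceeded the presence threshold of the methods (3.14 on the log2 scale) on both arrays of at least 1 condition (24151 of 54613, after 62 control probe sets were set aside). The 6 condition means were fitted in R 4.3.3, using limma 3.58.1 and version 1.17.8 of data.table (6 residual and 2.29 prior degrees of freedom), with two-sided tests and Benjamini-Hochberg adjustment over all tested probe sets at 0.05. Exact permutation of 2 against 2 arrays cannot give a p under 0.333. Folds against a condition wholly under the threshold are bounds computed against it. Named were all members, the 2 largest changes past the test per list and comparison, and the 3 most alike genes of members that span 2 log2 units. The fit was tested on simulated data. Alternatives were adding the third arrays by their title or by their source name, each array left out, a replicate block, no or a doubled presence threshold, quantile normalization, median centring, a trended variance, separate fits of only the conditions compared and, added after seeing the data, the normoxic arrays of replicate 2 left out.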

Additional observations from a re-analysis of the deposited data

Results flagged for a closer look

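The third arrays, whose title and source name name different drugs, stood outside all comparisons. On at least 1 of them, 8 members exceeded the highest of the 4 arrays without drug. The highest of 6 arrays was set here against the highest of 4, and the share of all probe sets that exceeded it was not computed. The count is therefore not read as a result about the members. On the array titled H tax with the source name H, NFKB1 had 10.40 (highest array without drug 10.35), NFKB2 9.43 (7.57), RELB 7.53 (5.99), NFKBIA 11.16 (10.87), NFKBIE 8.98 (8.09), TNFAIP3 8.09 (7.78) and ICAM1 6.90 (6.82). NFKBIZ had 9.13 on the array titled N tax with the source name N (8.73). NFKB2, RELB and NFKBIE lay furthest above, by 0.89 log2 units or more, and the others by 0.05 to 0.41. Since the drug on these arrays is not settled by the labels, no direction of a drug effect was taken from them.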

How the results depend on the processing

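Each array left out in turn gave between 0 and 10 members past the test in H epi against N epi, 0 to 5 in N tax against N, 1 to 7 in N epi against N, 2 to 4 in H tax against H and 4 to 8 in H epi against H. It gave 0 to 7 for the difference between the hypoxia effects of epirubicin and no drug, and 0 throughout for H tax against N tax, H against N and the difference between paclitaxel and no drug. With the third arrays added by source name, the counts were 0 in N tax, N epi, H tax and H epi, and no probe set of the whole array passed in any comparison (67 to 2039 at an unadjusted p under 0.05 by limma). Added by title, they gave 10 in N epi against N (3 higher, 7 lower, with 65.2% of all probe sets past the test) and 5 in H tax against H (41.5%). Without the presence filter, the counts were 1 in H tax against N tax (0.531% of all), 1 in N epi (18.6%) and 4 in H epi (25.9%). Quantile normalization gave 6 in N epi (56.6% of all) and turned ICAM1 215485_s_at in H epi against H to 0.62. Fits of each comparison's own conditions gave 1 in N epi (43.4% of all) and 7 in H tax (24.7%). Without the normoxic arrays of replicate 2 the counts moved as well, but those arrays were chosen because members differed on them. The fits without 1 of the N epi arrays share this limit. The share of all probe sets past the test changed between these fits too, so shifts in the counts are not read as traits of the members. The causes were not tested.

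With a replicate block, 3 members passed in N tax against N (22.3% of all probe sets), 3 in N epi (52%), 4 in H tax (29.1%) and 8 in H epi (63.1%). In the other comparisons 0 passed (0.0662% to 8.79% of all). The numbers were not taken to pair the samples, because only 3 of 15 pairs of conditions had a correlation of their replicate deviations over 0.1 (-0.184 to 0.302). With 2 arrays per condition, 1 array can decide a call, and signals under the threshold give only bounds.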

Other observations

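The third arrays gave these member values. The array titled N epi with the source name N tax had 4.25 for REL, 4.44 for NFKBIA, 6.19 for NFKBIE, 2.34 for NFKBIZ, 4.14 for RELB and 4.13 for TNFAIP3. The array titled H epi with the source name H tax had 4.65, 3.51, 4.82, 2.50, 2.86 and 3.71 for the same genes in the same order. The arrays titled N and H, with the source names N epi and H epi, had 10.74 and 10.56 for NFKBIA, 7.02 and 6.78 for REL and 8.51 and 8.42 for NFKBIZ. For the array titled N tax with the source name N, NFKB2 had 8.77, RELB 6.75 and TNFAIP3 7.84. These arrays are of no settled condition, and the values are given without comparison.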
